A study of Mus musculus with 32 samples.

Results

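Minor salivary glands are small clusters of mucous and serous secretory cells that lie beneath the lining of the mouth and open onto its surface through short ducts. Their mucous cells pack gel-forming mucins and trefoil peptides into granules, which requires an enlarged endoplasmic reticulum for protein folding, while serous demilune cells release smaller proteins and duct cells adjust salt and water. Genes of such cells are read from gingiva only as far as gland tissue lies within the dissected piece, and the labels do not say how much of it did.

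The genes described here are 10 of the 55359 gene identifiers in the deposited tables, and all 10 were found by symbol: Muc5b, Tff2, Bpifb2, Azgp1, Dcpp1, Dcpp2, Dcpp3, Smgc, Ern2 and Ppp1r1b. They were chosen by their CPM in the gingiva libraries, for being nearly absent where mice had both treatments, so their values there are a description and are not tested. Of the 10, 8 encode secreted proteins. Ern2 and Ppp1r1b encode intracellular proteins, an endoplasmic reticulum stress sensor and a phosphatase inhibitor.

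Poly(A) RNA was sequenced from gingiva and bone of wild type male C57BL/6J mice, an inbred strain, 9 weeks old. LiTra mice had a 6-0 silk thread tied around the left second molar of the upper jaw together with composite resin built up on the chewing surface of that tooth, Li mice had the thread alone, Tra mice had the resin alone, and Co mice had no treatment. The thread models periodontitis and the resin traumatic occlusion, and the time from treatment to sampling is not given in the sources used here. Each group had 4 libraries in each tissue, 32 in all, with 36913075 to 50740393 counts in a gingiva library and 38163979 to 70793037 in a bone library. Levels are CPM, the usual count scaled to a common library size (here after TMM, which corrects for composition), and differences are log2 ± SE. A count of 3, used as the limit of detection, equals 0.0636 to 0.0793 CPM in gingiva, and such limits cover counting error only.

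The tissues carried their own markers. The epithelial keratin gene Krt14 ranged from 8930.4 to 20352 CPM in gingiva and from 5.41 to 1568 CPM in bone, while the osteoblast gene Ibsp ranged from 72.6 to 305 CPM in gingiva and from 1131 to 7098 CPM in bone. Bone markers were therefore present in gingiva at lower levels, and oral keratins in some bone libraries.

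Dcpp1, Dcpp2 and Dcpp3 encode demilune cell and parotid proteins, which serous cells of the mouse sublingual gland release. They are near copies, close together on chromosome 17 with 3 other listed genes between Dcpp1 and Dcpp3. Their transcripts are 94.0 to 95.6% identical in pairs, with a shared run of 168 bases. Reads can therefore be split between them, and each single value is uncertain by as much. The windows around their starts, 250 bases before to 50 after, are shown because they are as alike as the transcripts, 96.6 to 97.3% identical. Of the aligned positions 283 were the same in all and 13 differed, which the capitals mark. Sequences are from RefSeq on GRCm38.p6, an earlier build than the GRCm39 build of the counts, 5′ to 3′ on the plus strand.
Dcpp1, chr17:23880626-23880925: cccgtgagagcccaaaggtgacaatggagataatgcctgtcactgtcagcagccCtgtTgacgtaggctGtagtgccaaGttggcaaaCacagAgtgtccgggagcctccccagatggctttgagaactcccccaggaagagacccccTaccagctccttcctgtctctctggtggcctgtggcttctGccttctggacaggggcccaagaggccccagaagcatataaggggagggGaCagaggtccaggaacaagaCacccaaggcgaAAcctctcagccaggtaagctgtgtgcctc
Dcpp2, chr17:23898472-23898771: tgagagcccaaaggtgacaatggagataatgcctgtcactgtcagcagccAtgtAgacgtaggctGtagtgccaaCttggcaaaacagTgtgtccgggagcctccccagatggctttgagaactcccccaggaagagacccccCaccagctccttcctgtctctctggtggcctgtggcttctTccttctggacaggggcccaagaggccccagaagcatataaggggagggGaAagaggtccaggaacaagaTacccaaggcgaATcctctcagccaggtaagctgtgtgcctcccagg
Dcpp3, chr17:23917208-23917507: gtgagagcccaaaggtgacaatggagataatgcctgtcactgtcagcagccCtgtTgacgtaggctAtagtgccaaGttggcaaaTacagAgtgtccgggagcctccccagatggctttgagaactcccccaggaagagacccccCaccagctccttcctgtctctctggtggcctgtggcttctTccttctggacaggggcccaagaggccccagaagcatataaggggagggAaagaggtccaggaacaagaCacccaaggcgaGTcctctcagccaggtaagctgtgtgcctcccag

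Of the other genes, Azgp1, Bpifb2 and Smgc also had a window of 300 bases in the RefSeq table. The motif CATATG, bound by the gland cell transcription factor MIST1 (Bhlha15), was searched on both strands, on which it reads the same. The Azgp1 window held it 2 times without overlap, as 4.48% of the windows of 27025 genes held it at least once, and the windows of the other 5 genes did not hold these letters. The Azgp1 window is shown with both matches in capitals, as a description of the letters and not of a bound site.
Azgp1, chr5:137981271-137981570: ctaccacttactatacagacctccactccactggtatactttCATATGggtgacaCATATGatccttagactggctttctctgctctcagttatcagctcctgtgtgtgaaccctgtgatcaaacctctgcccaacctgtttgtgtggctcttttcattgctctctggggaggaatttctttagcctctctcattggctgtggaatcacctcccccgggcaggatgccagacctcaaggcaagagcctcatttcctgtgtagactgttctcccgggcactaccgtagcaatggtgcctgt

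Muc5b (ENSMUSG00000066108.8), the gel-forming mucin of mucous gland cells, gave the most counts of the 10. Its level was 0, 2.30, 0.189 and 13.9 CPM in LiTra gingiva libraries 1 to 4 and 142, 171, 7914 and 1149 CPM in Li. It was 55.5, 467, 3795 and 2469 CPM in Tra and 5017, 3518, 2176 and 0.0793 CPM in Co. All LiTra libraries were low, and so was control library 4, which held 3 counts of Muc5b where the other controls held 90821 to 206683. Every Li and Tra library lay above every LiTra library, and they spread over more than 1 order of magnitude within each group, with Li library 3 above every control. The mean was 4.09 ± 6.61 CPM in LiTra, 2344 ± 3743 in Li, 1697 ± 1752 in Tra and 2678 ± 2129 in Co (SD, n = 4 each), so that the SD exceeded the mean in LiTra, Li and Tra.

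Tff2 (ENSMUSG00000024028.8), a trefoil peptide secreted with mucins, had 0, 0.0690, 0 and 0.573 CPM in LiTra and 34.7, 19.3, 1499.9 and 286 CPM in Li. It had 18.0, 167, 974 and 456 CPM in Tra and 2012, 1092, 666 and 0.106 CPM in Co. The order of libraries was close to that of Muc5b, with Li library 3 and control library 1 at the top and control library 4 among the LiTra libraries. Bpifb2 (ENSMUSG00000027481.3), of a family of lipid-binding proteins found in saliva and airway fluid, had 0, 1.43, 0 and 3.09 CPM in LiTra and 69.8, 51.3, 2464 and 534 CPM in Li. It had 33.5, 317, 1641 and 678 CPM in Tra and 2253, 1359, 953 and 0.291 CPM in Co. LiTra and Co libraries overlapped for each of these 3 genes through control library 4 alone.

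The Dcpp genes followed the same libraries at lower counts. Dcpp1 (ENSMUSG00000096445.2) had 0, 0, 0 and 0.389 CPM in LiTra, 4.09, 7.62, 103 and 58.5 CPM in Li, 0.418, 13.4, 116 and 40.4 CPM in Tra, and 195, 54.7, 195 and 0 CPM in Co. Dcpp2 (ENSMUSG00000096278.9) had 0 counts in every LiTra library, 5.01, 8.40, 105 and 62.0 CPM in Li, 0.862, 13.9, 118 and 42.3 CPM in Tra, and 192, 50.8, 163 and 0 CPM in Co. Dcpp3 (ENSMUSG00000057417.8) had 0, 0, 0 and 0.275 CPM in LiTra, 4.74, 11.9, 118 and 76.6 CPM in Li, 1.77, 17.9, 133 and 53.3 CPM in Tra, and 215, 60.4, 211 and 0 CPM in Co. Across the 3 copies only LiTra library 4 held any count among the LiTra libraries, and control library 4 held none. Of the Dcpp counts, Dcpp1 took 13.7 to 34.3% and Dcpp2 28.2 to 36.2% in the 11 libraries with at least 1000 counts over the 10 genes. Dcpp3 took 34.2 to 42.7% in 10 of the 11, and 58.1% in Tra library 1, which held 124 Dcpp counts. Since reads can be split between the copies, these parts are uncertain.

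Smgc (ENSMUSG00000047295.17) encodes submandibular gland protein C, made from the same locus as the mucin gene Muc19, so that reads of shared sequence could be assigned to either. No row of the tables matched Muc19 by symbol. Smgc had 0, 0, 0 and 0.183 CPM in LiTra, 2.44, 2.14, 64.9 and 13.8 CPM in Li, 0.320, 9.32, 67.2 and 20.3 CPM in Tra, and 187, 84.5, 44.4 and 0 CPM in Co. Azgp1 (ENSMUSG00000037053.7), a secreted zinc-binding glycoprotein, had 0.127, 0.0690, 0.0947 and 0 CPM in LiTra, 0.524, 0.445, 14.1 and 1.93 CPM in Li, 0.0738, 2.43, 8.27 and 3.84 CPM in Tra, and 22.0, 8.55, 8.46 and 0.159 CPM in Co. Azgp1 in LiTra rested on 12 counts in all, and its lowest Tra library, with 3 counts, lay among the LiTra libraries.

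Ern2 (ENSMUSG00000030866.9), the endoplasmic reticulum stress sensor IRE1β of mucous cells, had 0 counts in every LiTra library, 0.324, 0.573, 17.2 and 3.46 CPM in Li, 0.345, 2.63, 10.7 and 5.41 CPM in Tra, and 19.8, 12.3, 6.44 and 0 CPM in Co. Ppp1r1b (ENSMUSG00000061718.13), best known as the phosphatase inhibitor DARPP-32 of striatal neurons, had 0.203, 0, 0.142 and 0.0916 CPM in LiTra, 1.02, 0.467, 13.8 and 2.18 CPM in Li, 0.197, 5.79, 5.77 and 3.84 CPM in Tra, and 15.4, 11.6, 6.04 and 0.635 CPM in Co. In control library 4 Ppp1r1b kept 24 counts, out of the 48 counts that this library held over the 10 genes together.

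**Figure D1:**
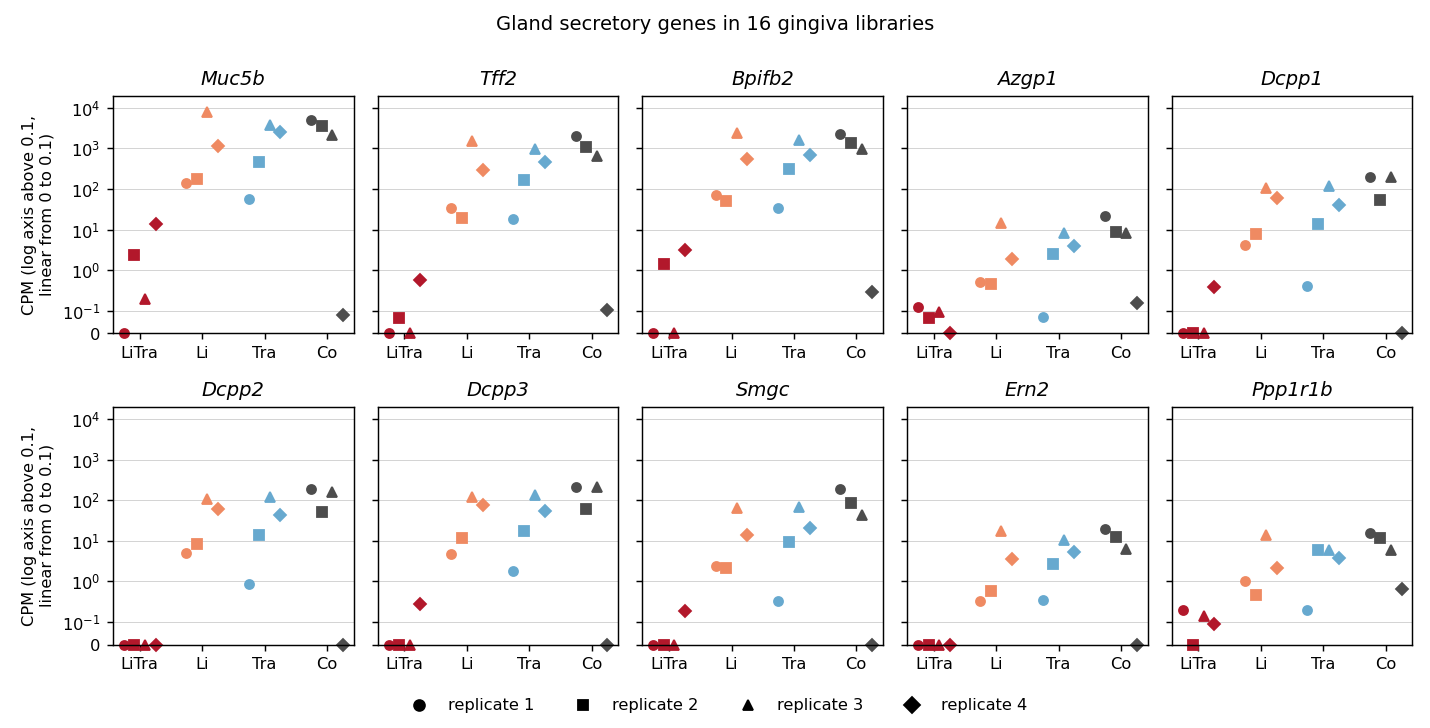
CPM of each of the 10 genes (vertical axis, linear from 0 to 0.1 and logarithmic above) in LiTra, Li, Tra and Co gingiva, with 1 point a library and 1 marker shape a replicate number. The 4 LiTra points lie below the 4 Li points in every panel, and Co replicate 4 lies under the highest LiTra point or at 0 except for Azgp1 (0.159 CPM) and Ppp1r1b (0.635 CPM), where it lies above the LiTra points.

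Ratios of the group means give the size of the difference that chose these genes. For the 8 genes with counts in LiTra, the mean was 77.1- to 5875-fold lower in LiTra than in Co, with a median of 1076-fold. It was 39.9- to 2867-fold lower in LiTra than in Li and 35.8- to 2517-fold lower than in Tra. Tff2 gave the highest of these ratios and Ppp1r1b the lowest. Dcpp2 and Ern2 had no count in LiTra, and against a limit of 3 counts over the group they were at least 5717-fold and at least 543-fold lower than in Co. Without control library 4, an alternative chosen after seeing the data, the range against Co was 101- to 7834-fold.

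All 4 LiTra libraries lay below all 4 Li libraries for 10 of the 10 genes, where 5.98% of the 20143 genes tested in gingiva did. They lay below all 4 Tra libraries for 8 of the 10, all but Azgp1 and Ppp1r1b, against 11.1% of all genes. They lay below all 4 Co libraries for 2 of the 10, Azgp1 and Ppp1r1b, against 14% of all genes. These counts describe the contrast by which the genes were chosen. All 10 genes passed the filter on low counts in gingiva. In tissue pieces, fewer gland cells and less RNA of these genes per cell cannot be told apart.

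Summed over the 10 genes, the level was 0.329, 3.86, 0.426 and 18.5 CPM in LiTra libraries 1 to 4, 264, 273, 12315 and 2188 CPM in Li, 111, 1017, 6870.2 and 3773 CPM in Tra, and 10129, 6252, 4429 and 1.27 CPM in Co. The highest library, Li 3, held 37404 times the level of the lowest, LiTra 1. Within Li the highest and lowest libraries thus differed far more than the Li and Co means, which were 3760.0 ± 5774 and 5203 ± 4204 CPM (SD, n = 4 each). Control library 4 fell between LiTra libraries 3 and 2. That library held 5 of the 10 genes at 0 counts, while LiTra libraries 1 to 4 held 8, 6, 7 and 3 at 0. No other Co library and no Li or Tra library had any of the 10 at 0.

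Whether the thread or the resin alone changed these genes in gingiva was tested in a fit of the 12 Li, Tra and Co libraries. It leaves out the LiTra libraries, for whose low values the genes were chosen. The choice read gingiva levels across all groups, however, so the fit is not independent of it. None of the 10 was called in Li against Co by edgeR's quasi-likelihood test at a Benjamini-Hochberg adjusted p under 0.05, where 4.82% of 19592 genes were called. The log2 differences ran from -1.93 ± 1.57 for Smgc (adjusted p = 0.518) to -0.19 ± 1.75 for Muc5b (adjusted p = 0.964). None was called in Tra against Co either, where the call rate over all genes was 0%, and the differences ran from -1.70 ± 1.56 for Smgc (adjusted p = 0.958) to -0.66 ± 1.76 for Muc5b (adjusted p = 0.994). None of the 10 had an unadjusted p under 0.05 in either comparison, and DESeq2 and limma-voom called 0 as well. All 20 estimates were negative, with a median of -1.11 in Li and -1.22 in Tra beside a median near 0.00 over all genes in Li, but each SE was at least 1.13. The direction was not stable: in limma-voom 8 of the 10 estimates were positive in Li and 6 of the 10 in Tra, and leaving out 1 library turned Muc5b (to 0.29) and Bpifb2 (to 0.0068) in Li. The 2 comparisons share the control libraries, and without control library 4 no call was gained.

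Per base of transcript the order of the genes changes, since the Muc5b transcript has 14964 bases and that of Tff2 has 584. In the 11 gingiva libraries with at least 1000 counts over the 10 genes, Tff2 had the highest median level, 781 CPM per kilobase, followed by Bpifb2 at 392 and Muc5b at 145. The order Tff2, Bpifb2, Muc5b held in 11 of 11 libraries. Muc5b stood above Dcpp3 (89.1 CPM per kilobase) in 8 of 11, Dcpp3 above Dcpp1 (88.6) in 10 of 11, and Dcpp1 above Dcpp2 (73.7) in 9 of 11, so these neighbours kept no fixed order. Dcpp2 above Smgc (6.83) and Smgc above Azgp1 (2.96) held in 11 of 11. Azgp1 above Ppp1r1b (2.88) and Ppp1r1b above Ern2 (1.86) held in 8 of 11 each. Lengths are those of the longest coding transcript in GENCODE M21.

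The genes went up and down together. Over the 12 Li, Tra and Co gingiva libraries, log2 levels of the 45 pairs of genes correlated with Pearson r from 0.735 to 0.998 and a median of 0.955. The lowest r was that of Muc5b with Ppp1r1b, and 6 of the 7 pairs under 0.85 included Ppp1r1b. These are descriptions over libraries that share depth scaling and, for the Dcpp genes, sequence, and control library 4 was low in all of them.

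Their proportions still varied between libraries. Muc5b took 46.0 to 65.5% of the summed CPM of the 10 genes in the 11 libraries, Bpifb2 18.0 to 31.2% and Tff2 7.04 to 19.9%. Per 100 Muc5b counts there were 27.4 to 67.9 Bpifb2 counts, 11.2 to 40.1 Tff2 counts, 4.12 to 26.2 Dcpp counts and 0.576 to 3.73 Smgc counts. Bpifb2 thus kept closest to Muc5b, within a 2.47-fold span, while the Dcpp sum and Smgc spanned 6.35-fold and 6.47-fold. The Dcpp ratio was lowest in Li library 3, which had the most Muc5b, and highest in control library 3, with 4.71 and 12.02 in control libraries 2 and 1. The Smgc ratio was 1.73, 1.25, 0.820 and 1.20 in Li, 0.576, 1.99, 1.77 and 0.824 in Tra and 3.73, 2.40 and 2.04 in Co libraries 1 to 3, so the 3 controls stood above all Li and Tra libraries. No test was run on these ratios, and LiTra libraries and control library 4 held too few counts for them.

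The genes with the most similar pattern outside the 10 were taken as those with the highest Pearson r to the mean log2 profile of the 10 over the same 12 libraries. Of 15262 genes considered, 20 had an r over 0.95 and 43 over 0.90. Among the 10 highest were Bpifb6 (0.994), a relative of Bpifb2; Pigr (0.992), the receptor that carries IgA across gland epithelium; Lman1l (0.992), a relative of an endoplasmic reticulum cargo lectin; and Lrrc26 (0.988), an auxiliary subunit of BK potassium channels. Also among them were Agr2 (0.986), a disulfide isomerase needed for mucin folding; Chst4 (0.986), a sulfotransferase of mucin-type glycans; B4galnt2 (0.979), a glycosyltransferase; Ccl28 (0.974), a chemokine that draws IgA-secreting cells to mucosa; and 5330417C22Rik (0.973). LiTra libraries were not in this ranking, but the 10 genes it was matched to were chosen for low LiTra values. Low LiTra levels of the similar genes are therefore a description and no independent support.

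In LiTra these genes were low as well. Pigr had 0.203 to 2.11 CPM in LiTra, with medians of 0.360 CPM in LiTra, 24.4 in Li, 45.6 in Tra and 132 in Co. Lrrc26 had 0.0690 to 0.284 CPM in LiTra, with medians of 0.179 CPM in LiTra, 2.62 in Li, 8.21 in Tra and 16.3 in Co. Chst4 had 1.11 to 1.33 CPM in the LiTra libraries, all above the 0.238 CPM of control library 4. Ccl28 had medians of 1.95 CPM in LiTra, 4.68 in Li, 6.35 in Tra and 7.56 in Co.

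**Figure D2:**
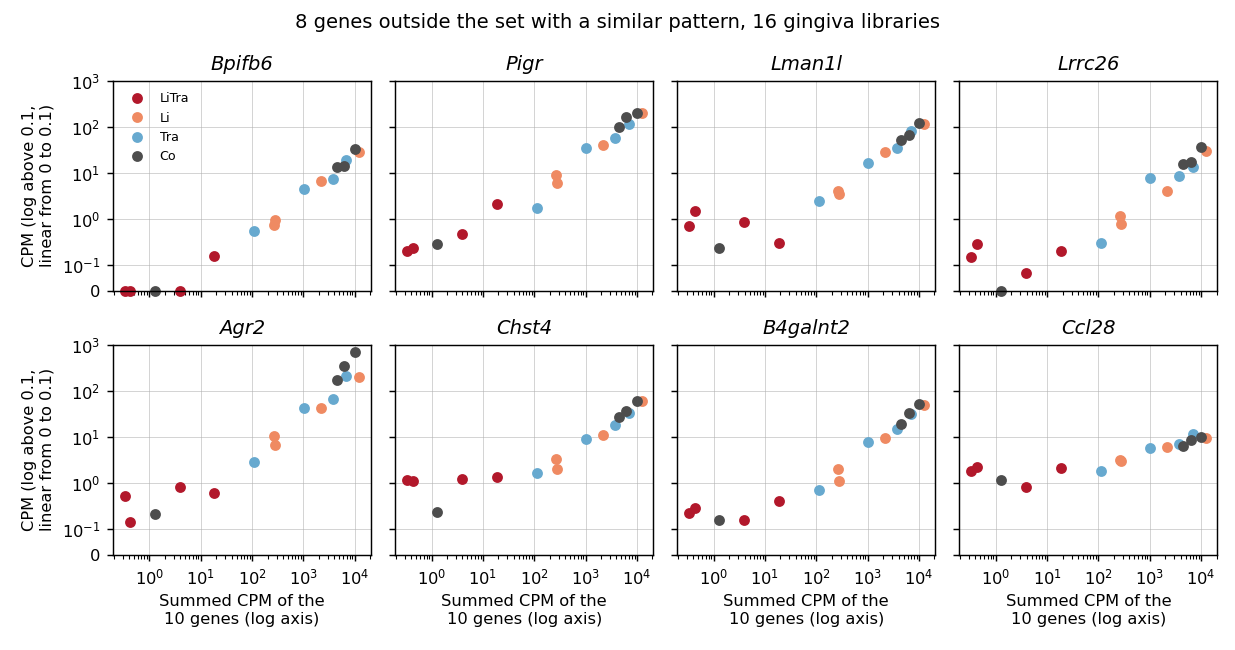
CPM of 8 of the 10 most similar genes outside the set (vertical axis, linear from 0 to 0.1 and logarithmic above) against the summed CPM of the 10 gland secretory genes (horizontal logarithmic axis), with 1 point for each of 16 gingiva libraries. Pigr follows the sum over the Li, Tra and Co libraries, while Chst4 stays between 1.11 and 1.33 CPM in the LiTra libraries.

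The wider set of gland genes was read from 4 lists with 69 genes: secretions, transcription factors and folding enzymes, acinar water and ion transport, and ducts and ionocytes. Rows matched 67 of them, and 14 stayed under 1 CPM in every gingiva library. Those at 0 in all 16 included Prb1, Prol1, Smr2 and Tff3. In a fit of all 16 gingiva libraries, 54 genes of the lists were tested.

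LiTra against Co called 29 of the 54, with 28 lower and 1 higher, where 22.9% of all 20143 genes were called and 11.5% were lower. The median log2 difference of the 54 was -1.17, beside -0.01 over all genes. By list, 4 secretion genes fell and 1 rose of 12, 12 of 17 transcription and folding genes fell, 6 of 13 transport genes fell, and 6 of 12 duct genes fell. A list names where its genes are known from, not the cells they were read from here. The count was 14 without Co library 1, 19 without LiTra 1, 17 without LiTra 2, 15 without LiTra 4 and 29 without control library 4. It was 16 in limma-voom and 33 in DESeq2, where these methods called 28.9% and 28.2% of all genes. The limma-voom count was close to its share over all genes, but that share covers both directions and all 16 genes were lower. Its share of genes called lower is not given here, so this count has no background of the same direction.

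Among secretion genes Pigr fell by 7.25 ± 1.76 on the log2 scale in LiTra against Co (edgeR adjusted p = 0.00926), although control library 4, at 0.291 CPM, lay among the LiTra libraries. Pigr was not called by limma-voom (adjusted p = 0.484). As a gene matched to the 10, which were chosen for low LiTra values, it gives a description and no independent support. Fcgbp, a mucus protein that binds IgG Fc, fell by 2.41 ± 0.72 (adjusted p = 0.0259), with 1.48 ± 1.321 CPM in LiTra and 7.88 ± 2.47 in Co (SD, n = 4 each). Its call ended without Co 1, LiTra 1, LiTra 2 or LiTra 4, at adjusted p of 0.0618 to 0.0751. Lactoferrin (Ltf), a protein of neutrophils as well as glands, differed by 0.53 ± 0.63 and was not called (adjusted p = 0.604), nor was Wfdc18, at -1.58 ± 0.64 (adjusted p = 0.0899), which was called in DESeq2 and without Co 4, at adjusted p of 0.0288 and 0.0188. Lpo, the salivary peroxidase, was the 1 gene that rose, by 3.32 ± 0.86 (adjusted p = 0.0128), with 0.686 to 9.90 CPM in LiTra and 0.238 to 0.695 CPM in Co, ranges that overlap. Without LiTra library 1, and in limma-voom, no gene of the lists was called higher. Lpo, Bhlha15, Spdef and Aqp5 were named after their values were seen. For Bhlha15, Spdef and Aqp5, calls by other methods or without single libraries are not given here. Control library 4 lay at or under the highest LiTra library in each of them.

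Among transcription and folding genes Agr2 fell by 9.17 ± 1.97 (edgeR adjusted p = 0.00481), with 0.524 ± 0.285 CPM in LiTra and 303 ± 296 in Co (SD, n = 4 each). Rab3d, a GTPase of secretory granules, fell by 1.12 ± 0.15 (adjusted p = 0.000342), with 107 ± 9.88 CPM in LiTra and 232 ± 27.2 in Co. Agr2 was not called by limma-voom (adjusted p = 0.547), and as a gene matched to the 10 it gives no independent support either. Rab27b, another such GTPase, fell by 0.52 ± 0.16 (adjusted p = 0.0287), and its call ended without Co 1, Co 3, Co 4, LiTra 2, LiTra 3 or LiTra 4, at adjusted p of 0.0580 to 0.0875. Xbp1, a transcription factor of the unfolded protein response, differed by 0.26 ± 0.15 and was not called (adjusted p = 0.242). Bhlha15, whose product is MIST1, fell by 3.88 ± 1.11 (adjusted p = 0.0213), and Spdef, a factor of mucous cells, fell by 3.82 ± 1.10 (adjusted p = 0.0221).

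Among transport genes Stim1, the calcium sensor of the endoplasmic reticulum, fell by 0.89 ± 0.13 (edgeR adjusted p = 0.000708), with 35.0 ± 3.87 CPM in LiTra and 64.9 ± 9.12 in Co (SD, n = 4 each). Aqp5, the water channel of acinar cells, fell by 5.35 ± 1.39 (adjusted p = 0.0130). The chloride transporter Slc26a9 fell by 1.09 ± 0.34 (adjusted p = 0.0313), and its call ended without Co 1, Co 3, Co 4, LiTra 2, LiTra 3 or LiTra 4, at adjusted p of 0.0525 to 0.0910, and with no filter, at 0.0511. The chloride channel Ano1, at -0.69 ± 0.25 (adjusted p = 0.0589), and the cotransporter Slc12a2, at -0.53 ± 0.32 (adjusted p = 0.260), were not called. Ano1 was called under 7 of 24 alternatives, at adjusted p of 0.00576 to 0.0492. Among duct genes Elf5 fell by 1.15 ± 0.26 (adjusted p = 0.00675), the sodium channel gene Scnn1a fell by 0.94 ± 0.22 (adjusted p = 0.00850). The simple epithelial keratin Krt8 fell by 4.04 ± 1.13 (adjusted p = 0.0188), a call that ended without Co 1, LiTra 1 or LiTra 4, at adjusted p of 0.0508 to 0.0562, and in limma-voom, at 0.142. Its partner Krt18 was at -2.49 ± 0.998 and was not called (adjusted p = 0.0853), but it was under 3 of 24 alternatives, at adjusted p of 0.0334 to 0.0489.

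The 28 genes that fell differed in control library 4. In 10 of them, Agr2, Aqp5, Bhlha15, Bpifa2, Creb3l4, Foxa3, Gcnt3, Krt8, Pigr and Spdef, this library lay at or under the highest LiTra library. In 17 of them all LiTra libraries lay below all Co libraries, control library 4 included, where 14% of the 20143 genes tested did. In 27 they lay below Co libraries 1 to 3, a share not taken over all genes. Since the 28 were picked as lower in LiTra against Co, these counts describe them and add no separate evidence. Stim1 had 73.0 CPM in control library 4, the highest of the Co libraries, against at least 51.9 in the other Co libraries and at most 39.7 in LiTra. Elf5 had 65.1 CPM there, with 15.1 to 36.3 in LiTra.

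LiTra against Tra called 20 of the 54, 19 lower and 1 higher, where 18.8% of all genes were called and 9.44% were lower. The count was 11 without Tra 3, 12 without Tra 4, 13 without LiTra 1, and 9 without LiTra 2 or LiTra 4. LiTra against Li called Stim1 alone, lower by a log2 difference of -0.82 ± 0.13 (edgeR adjusted p = 0.0452), where 0.0844% of all genes were called and 0.0596% were lower. For that comparison 27 of the 54 had an unadjusted p under 0.05, as 18.5% of all genes did. DESeq2 called 16, where it called 7.03% of all genes, limma-voom called 2, where it called 2.16%, and edgeR called 7 without Li library 1 and 0 without each of 13 other libraries. Li against Co called 2 of the 54, both lower, where 7.49% of all genes were called and 2.30% were lower. They were Rab3d at -0.53 ± 0.15 (adjusted p = 0.0424) and Elf5 at -1.16 ± 0.26 (adjusted p = 0.0180). Neither was called without Co 3, Co 4, Li 1 or Li 2, and 1 was called without Co 1, Co 2, Tra 1, Tra 3, Tra 4, LiTra 1 or LiTra 3. DESeq2 called 6 of the list genes and limma-voom 1, where they called 13.7% and 5.04% of all genes. Tra against Co called 0 by edgeR, where the rate over all genes was 0%. In that comparison 2 had an unadjusted p under 0.05, as 6.57% of all genes did. DESeq2 and limma-voom called 0 there, where they called 0.458% and 0.0199% of all genes.

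The interaction, the LiTra to Tra difference minus the Li to Co difference, called 0 of the 54 by edgeR, and 0% of all genes. At an unadjusted p under 0.05 there were 13 of the 54, as were 11.4% of all genes. DESeq2 called 1 and limma-voom 0, where they called 0.911% and 0% of all genes. A larger effect of the thread on these genes with the resin than without it was therefore not called.

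Markers of other tissues were read beside the 10 genes. The skeletal muscle list (14 genes) summed to 145 to 597 CPM in LiTra, 581 to 3526 in Li libraries, 131 to 10207 in Tra libraries and 183 to 3877 in Co libraries. It was low in the LiTra libraries, as the gland genes were, but control library 4 was high in muscle and low in gland genes, while control library 2 and Tra library 3 were the reverse. The nasal gland list summed to 3.53 to 242 CPM in LiTra, 4.90 to 1096 in Li libraries, 20.5 to 32025 in Tra libraries and 25.7 to 104 in Co libraries, with the highest values in Tra library 2 and Li library 1. The IgA plasma cell list summed to 34.7 to 42.3 CPM in LiTra, 47.3 to 48.5 in Li libraries, 46.2 to 74.0 in Tra libraries and 50.2 to 72.4 in Co libraries, so the LiTra libraries were the lowest. Most of that sum was Prdm1, which other cells express too. Of the defining genes Igha reached at most 0.379 CPM in LiTra and 4.58 CPM in any library, and Mzb1 was at 0 in every Co library. The part of these cells in the result was not tested.

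In LiTra against Co, edgeR called 6 of 14 muscle genes lower and 0 higher, 3 of 10 adipocyte genes lower, 2 of 8 plasma cell genes lower and 2 of 12 nasal gland genes lower, where 11.5% of all genes were lower. In the plasma cell list the genes called were Prdm1, which other cells express too, and Ccl28, a chemokine that draws such cells. Igha, Igkc and Jchain were not called (edgeR adjusted p of 0.120, 0.468 and 0.577). In the nasal gland list they were Bpifb6 and Bpifb3. Bpifb6 had 0 CPM in bone libraries Co 3 and Tra 3 and 0.270 in LiTra 1, where the nasal gland list was highest. Ccl28 and Bpifb6, both among the genes most similar to the 10, thus stand in these lists. Of 16 oral epithelium genes 9 fell and 2 rose, and of 11 gland stem and myoepithelial genes 3 fell and 2 rose. Of all 20143 genes, 2293 were called higher. The sum of the oral epithelium list was 63329 to 76396 CPM in LiTra, 54639 to 117019 in Li libraries, 117616 to 132946 in Tra libraries and 93570 to 118395 in Co libraries, the highest of the Co libraries being library 4. The adipocyte list summed to 34.3 to 83.4 CPM in LiTra and 47.9 to 141 in Co. The part of oral epithelium and fat in the gland gene result was not tested.

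**Figure D3:**
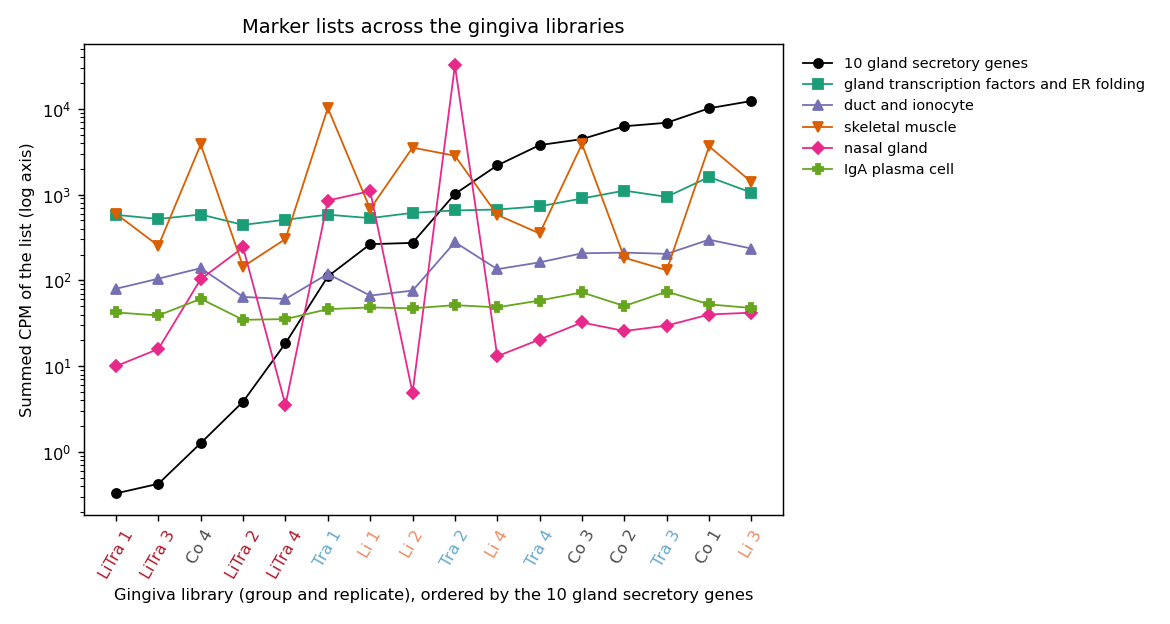
Summed CPM (vertical logarithmic axis) of 6 gene lists in each of 16 gingiva libraries, ordered from left to right by the 10 gland secretory genes, with library names coloured by group. The 4 LiTra libraries and Co 4 are the 5 lowest, while skeletal muscle and nasal gland sums go up and down along the same order.

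In bone the summed level of the 10 genes was at most 130 CPM in any library. Of the 10, 6 passed the filter on low counts: Muc5b, Tff2, Bpifb2, Azgp1, Dcpp1 and Ppp1r1b. Dcpp2, Dcpp3, Smgc and Ern2 did not, with 0 counts in 12, 9, 13 and 13 of the 16 libraries. The sum over the 10 was 84.0, 1.02, 0.471 and 1.87 CPM in LiTra libraries 1 to 4, 4.17, 11.9, 14.3 and 11.7 CPM in Li, 10.5, 13.4, 130 and 0.510 CPM in Tra, and 0.266, 2.03, 47.6 and 30.6 CPM in Co. The groups overlapped, and the highest libraries, Tra 3, LiTra 1 and Co 3, came from different groups. TMM raised CPM in these libraries: Tra 3 held 58767902 counts, but its CPM used a library size of 2.18e+07. Of all counts, the 10 genes took 0.00483% in LiTra 1, 0.00482% in Tra 3, 0.00314% in Co 4 and 0.00297% in Co 3.

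These were also the libraries in which the nasal gland list took most of the counts, 51.4% in LiTra 1, 35.0% in Tra 3 and 48.0% in Co 3, followed by 24.3% in Li 2 and 6.86% in Tra 1, with Co 4 between them. Ppp1r1b and Azgp1 were high there. Ppp1r1b had 24.01 CPM in LiTra 1, 113 in Tra 3 and 21.4 in Co 3, and 0.0462 to 3.58 CPM in the other libraries. Azgp1 had 24.9 CPM in LiTra 1, 16.3 in Tra 3 and 23.5 in Co 3, and 0 to 6.42 CPM elsewhere. Scaled by library totals without TMM, Azgp1 had 14.3 CPM in LiTra 1, 14.7 in Co 3 and 6.04 in Tra 3. The last was no higher than the 6.06 CPM of Li 2. Ppp1r1b on that scale had 42.0 CPM in Tra 3, 13.8 in LiTra 1, 13.4 in Co 3 and 3.68 in Co 4. The part of the nasal gland material in these levels was not tested.

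Muc5b was high in LiTra 1 as well, but low in Tra 3 and Co 3. It had 17.4, 0.400, 0.143 and 0.477 CPM in LiTra bone libraries 1 to 4, 1.76, 1.45, 5.03 and 8.08 CPM in Li, 5.34, 8.63, 0 and 0.188 CPM in Tra, and 0, 1.41, 0.777 and 17.9 CPM in Co. Tra library 3, where Ppp1r1b made up 87.2% of the summed CPM of the 10, had 0 counts of Muc5b and of Tff2, whereas Ppp1r1b took 0.0840 to 0.569% in the 11 gingiva libraries with at least 1000 counts over the 10 genes. Tff2 ranged from 0.0819 to 6.18 CPM in LiTra, 0.259 to 2.78 in Li libraries, 0 to 3.79 in Tra libraries and 0 to 2.83 in Co libraries. Bpifb2 was over 1 CPM only in LiTra 1, Li 3 and Co 4, and the Dcpp genes only in LiTra 1 and, for Dcpp2, Co 3.

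None of the 6 tested genes was called in bone by edgeR in any comparison. The rates over all 21205 genes were 3.51% in Li against Co, 0% in Tra against Co, 16.9% in LiTra against Co, 0% in LiTra against Li and 5.56% in LiTra against Tra. Log2 differences in LiTra against Co ran from -0.19 ± 2.33 for Azgp1 to 2.51 ± 2.13 for Dcpp1 (adjusted p = 0.503). The lowest adjusted p was that of Dcpp1 in LiTra against Tra, a log2 difference of 7.74 ± 3.11 (adjusted p = 0.191), and it was the only 1 of 30 results with an unadjusted p under 0.05. All 4 Tra libraries had 0 counts of Dcpp1, so that this estimate depends on the prior count. DESeq2, which tested 4 of the 10, and limma-voom called 0. The SE was at least 1.77 for each of these estimates, so large differences in bone could pass unseen.

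**Figure D4:**
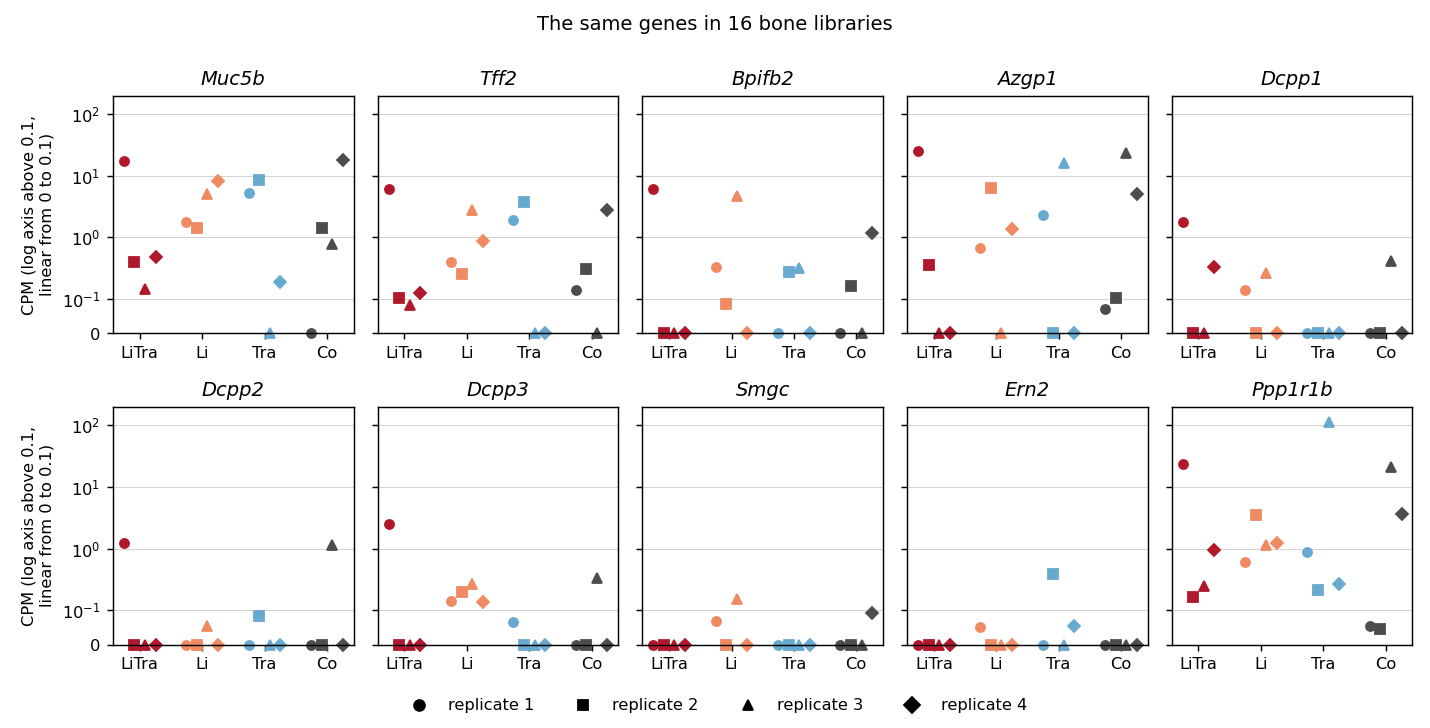
CPM of the 10 genes (vertical axis, linear from 0 to 0.1 and logarithmic above) in LiTra, Li, Tra and Co bone, with 1 point a library and 1 marker shape a replicate number. Most points lie under 10 CPM, and Ppp1r1b and Azgp1 are highest in Tra replicate 3, LiTra replicate 1 and Co replicate 3.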

How the data were processed

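Expression was deposited as 1 table of estimated counts for each tissue, in whole numbers and without normalization by the authors. The submitters' processing notes name Trimmomatic 0.39, FastQC 0.11.9, HISAT2 2.2.1, StringTie 2.1.7, DESeq2 and GRCm39, with no role or order for each. Use of strand in counting is not given in the sources used here. Columns lettered CR were taken as Tra, from the composite resin in its label.

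From these tables, R 4.3.3 and edgeR 4.0.16 gave two-sided quasi-likelihood tests after filterByExpr (minimum count 10, total 15) and TMM, with Benjamini-Hochberg adjusted p under 0.05. The 10 genes were fitted in 12 gingiva libraries without LiTra and in 16 bone libraries, and the other gland genes in 16 gingiva libraries, with all genes of the table in each fit. The procedure was tested on simulated data.

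Alternatives were size factors of DESeq2, library totals, no filter, a filter of CPM above 1 in 4 libraries, the tests of DESeq2 1.42.0 and limma-voom 3.58.1 (with quality weights), a block for the replicate number, only the compared groups, all gingiva libraries for the 10 genes, bone without Co 3, Tra 3 and LiTra 1, summed Dcpp copies, and each library left out. Genes named were the 10, the 4 of highest mean CPM in each list, and the 10 most similar, of which 1 is not reported here. The genes and lists were chosen with earlier results of these data known. GENCODE M21 gave symbols for 52083 of 55359 identifiers. No libraries within a group were identical. Nothing states that libraries are separate animals, so p-values measure only the spread between these libraries.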

Additional observations from a re-analysis of the deposited data

Results flagged for a closer look

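Of 73 sets of 4 libraries (1 gene in 1 group and tissue), 31 held 1 library whose gap to the next took more than Dixon's 95% limit of the range. Chance marks about 1 in 20 such sets, and many of these have 3 libraries at or near 0. In gingiva Li library 3 stood above the other Li libraries in Muc5b (7914 CPM), Azgp1 (14.1 CPM) and Ppp1r1b (13.8 CPM). LiTra library 4 stood above the other LiTra gingiva libraries in Muc5b (13.9 CPM), Tff2 (0.573 CPM), Dcpp1 (0.389 CPM), Dcpp3 (0.275 CPM) and Smgc (0.183 CPM).

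In bone LiTra library 1 stood above the other LiTra libraries in Azgp1 (24.9 CPM), Ppp1r1b (24.01 CPM), Muc5b (17.4 CPM), Tff2 (6.18 CPM), Bpifb2 (6.14 CPM), Dcpp3 (2.46 CPM) and Dcpp2 (1.22 CPM). Among Tra bone libraries, replicate 3 was high in Ppp1r1b (113 CPM) and Azgp1 (16.3 CPM), replicate 2 in Ern2 (0.381 CPM) and Dcpp2 (0.0846 CPM), and replicate 1 in Dcpp3 (0.0668 CPM). Among Li bone libraries, replicate 3 was high in Bpifb2 (4.61 CPM) and Dcpp2 (0.0553 CPM) and replicate 1 in Ern2 (0.0523 CPM). Among Co bone libraries, replicate 4 was high in Muc5b (17.9 CPM), Tff2 (2.83 CPM), Bpifb2 (1.19 CPM) and Smgc (0.0913 CPM), and replicate 3 in Ppp1r1b (21.4 CPM), Dcpp2 (1.15 CPM), Dcpp1 (0.407 CPM) and Dcpp3 (0.333 CPM).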

How the results depend on the processing

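The 10 genes gave 0 calls under each alternative run, in Li and Tra against Co in gingiva and in the 5 bone comparisons, including 12 and 16 fits that each left out 1 library. The sign of their Li and Tra estimates was not stable. In limma-voom with quality weights the log2 difference in Li against Co was 0.95 for Dcpp1, 1.17 for Dcpp2, 1.17 for Dcpp3, 0.90 for Tff2, 0.15 for Smgc, 1.25 for Bpifb2, 0.32 for Ern2 and 2.05 for Muc5b, and in Tra against Co 0.10 for Dcpp2, 0.33 for Dcpp3, 0.64 for Tff2, 0.84 for Bpifb2, 0.27 for Ern2 and 1.42 for Muc5b. The cause was not tested. Leaving out 1 library, Li against Co ran from -2.45 to 0.29 for Muc5b and from -2.38 to 0.0068 for Bpifb2.

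Of the other gland genes, LiTra against Co called 29, with 14 to 31 when 1 library was left out. It called 16 in limma-voom, all of them lower, where 28.9% of all genes were called in either direction. LiTra against Tra called 20, with 9 to 24 when 1 library was left out and 11 with no filter. LiTra against Li called 1, with 0 to 7 when 1 library was left out, 16 in DESeq2, 2 in limma-voom, and 0 each with library totals, no filter, the replicate block and the compared groups alone. Li against Co called 2, with 0 to 3 when 1 library was left out, 1 with no filter and 0 with the compared groups alone. It called 6 in DESeq2 and 1 in limma-voom, where 13.7% and 5.04% of all genes were called. The interaction called 0, and 1 in DESeq2. The cause was not tested. No pairing by replicate number was used in the main fits. Between libraries of the same number, deviations from group means correlated from -0.207 to 0.153 in gingiva and from -0.330 to 0.545 in bone. Of the 16 libraries of each tissue, 1 in gingiva and 4 in bone were most like another of their own number. Beyond the comparison named above, the block moved no count by over 1.5 times. Whether the numbers mark a shared batch was not tested. In gingiva, summed levels of the 10 genes with library totals moved by less than 1 SD. So did the Li to Co and Tra to Co ratios of Dcpp1 taken over the summed copies. For the sums that limit is wide, since their SD exceeded the mean in LiTra, Li and Tra. The check was not run for the bone sums, whose order changed with library totals as given above. Depth limits the LiTra values, where most counts were 0 or a few reads.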
